A study of Homo sapiens with 9 samples.

Results

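NEAT1 and MALAT1, long noncoding RNAs that stay in the nucleus, were followed along their whole length in eCLIP libraries of MDH2, the mitochondrial malate dehydrogenase. All windows listed under the Ensembl identifiers of both RNAs (ENSG00000245532 and ENSG00000251562) were taken, which gave 1129 windows of NEAT1 and 423 of MALAT1, or 1552 of the 15767969 windows and 2 of the 35309 gene identifiers in the table. The libraries come from Huh7, a human hepatoma cell line, and eCLIP reads where RNA was joined by UV light to the proteins of a purified complex. The study used it to find the RNAs bound by endogenous MDH2. In all groups the cells were UV cross-linked and lysed in RIPA buffer, and the lysates were sonicated and digested lightly with RNase I. The MDH2 IP libraries (3 replicates) hold RNA pulled down with an MDH2 antibody. The size-matched input (SMI, 3 replicates) is lysate kept back ahead of the pull-down, with RNA of an equal size range on the gel. The IgG IP libraries (3 replicates) were made with an isotype-matched antibody that has no MDH2 target. Both IPs were amplified by 14 PCR cycles and the SMI by 9.

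NEAT1 is transcribed as a short polyadenylated RNA and as a long RNA that begins at the same site, and the long form is the scaffold of paraspeckles, nuclear bodies that hold the proteins SFPQ, NONO and PSPC1. MALAT1 is among the most abundant nuclear RNAs and lies in and around nuclear speckles, the bodies rich in splicing factors. Neither MALAT1 nor long NEAT1 ends in an ordinary poly(A) tail. RNase P cuts on the 5′ side of a tRNA-like fold, which from MALAT1 releases the small cytoplasmic mascRNA. The new 3′ end is protected by a triple helix of U-rich stretches folded around an A-rich tail. Both RNAs are remote from the mitochondrial matrix, the main site of MDH2.

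A window is 50 nt long and a new window starts every 20 nt, so that each cross-link site is counted in up to 3 windows. Window counts per library came to between 5899998 and 9482501 for MDH2 IP, 8311118 and 9788565 for the SMI, and 1631267 and 2942816 for IgG IP. On GRCh38 the windows of NEAT1 ran on the plus strand from chr11:65422774 to chr11:65445540, as a single exon feature, with the short form ending at 65426457 in window 182. The windows of MALAT1 ended at chr11:65506516, and their start is known only to within 19 nt (between 65497747 and 65497766). The summed level of 8 hepatocyte markers was between 5201 and 6548 CPM (counts-per-million of the window counts) in the SMI, that of 3 endothelial markers between 8.17 and 10.4, that of 3 leukocyte markers between 3.73 and 4.60, and that of 3 fibroblast markers between 0.855 and 1.68.

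The sequences below are those on which the comparisons turn, read from GRCh38 in the direction of the RNA with T for U. Runs of at least 3 G or at least 10 T are in capitals. For NEAT1 they are the window with the most counts in both MDH2 IP and SMI (55), the windows with the highest log2 fold change of MDH2 IP over SMI (229, 4 and 52), the window with the lowest (968), and the window with the highest log2 fold change of IgG IP over SMI (109), the last chosen after its values were seen.
NEAT1 window 55, chr11:65423854-65423903: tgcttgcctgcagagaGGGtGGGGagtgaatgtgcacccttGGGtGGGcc
NEAT1 window 52, chr11:65423794-65423843: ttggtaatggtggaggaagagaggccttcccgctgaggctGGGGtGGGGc
NEAT1 window 4, chr11:65422834-65422883: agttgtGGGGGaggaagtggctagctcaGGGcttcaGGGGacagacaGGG
NEAT1 window 229, chr11:65427334-65427383: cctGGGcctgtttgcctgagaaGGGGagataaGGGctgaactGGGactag
NEAT1 window 968, chr11:65442114-65442163: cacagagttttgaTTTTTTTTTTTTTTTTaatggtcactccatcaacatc
NEAT1 window 109, chr11:65424934-65424983: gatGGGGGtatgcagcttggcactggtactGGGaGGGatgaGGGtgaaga

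For MALAT1, each sequence is the 69 nt that hold the window wherever its start lies. They are the window with the most counts in the SMI (378), that with the most in MDH2 IP (351), the windows with the highest (325) and lowest (85 and 106) log2 fold change of MDH2 IP over SMI, and the other windows among the 3 highest (367 and 173).
MALAT1 window 378, chr11:65505287-65505355: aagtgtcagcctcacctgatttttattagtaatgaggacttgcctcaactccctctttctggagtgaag
MALAT1 window 351, chr11:65504747-65504815: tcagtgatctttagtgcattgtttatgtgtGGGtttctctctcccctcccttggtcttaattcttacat
MALAT1 window 325, chr11:65504227-65504295: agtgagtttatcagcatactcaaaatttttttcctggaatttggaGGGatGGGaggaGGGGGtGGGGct
MALAT1 window 367, chr11:65505067-65505135: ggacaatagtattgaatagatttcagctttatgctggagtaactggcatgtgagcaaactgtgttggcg
MALAT1 window 173, chr11:65501187-65501255: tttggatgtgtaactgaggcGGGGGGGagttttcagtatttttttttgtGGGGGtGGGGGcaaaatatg
MALAT1 window 85, chr11:65499427-65499495: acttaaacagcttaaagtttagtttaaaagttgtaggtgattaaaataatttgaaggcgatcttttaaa
MALAT1 window 106, chr11:65499847-65499915: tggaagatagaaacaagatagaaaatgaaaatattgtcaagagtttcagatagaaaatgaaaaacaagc

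The last 80 nt of both RNAs before the RNase P cut are shown because they form the triple helix. The capitals mark the runs that both ends share: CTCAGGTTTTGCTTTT (16 nt), the longest, which holds a U-rich stretch of the helix, and AAAAAGCAAAA (11 nt) at the very end of the tail.
MALAT1 3′ end, chr11:65506037-65506116: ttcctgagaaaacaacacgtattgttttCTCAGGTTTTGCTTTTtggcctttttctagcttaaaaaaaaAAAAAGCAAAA
NEAT1 3′ end, chr11:65445461-65445540: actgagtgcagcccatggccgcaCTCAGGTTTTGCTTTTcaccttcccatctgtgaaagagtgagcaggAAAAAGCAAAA
The shared run of the tail overlaps in letters with the reverse complement of the other. Both runs on the RNA strand lay together in 1 of 8282 stretches of 80 nt along MALAT1 and in 1 of 22688 along NEAT1, which are the ends shown.

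NEAT1 was highest in IgG IP. It had 3588, 3572 and 2067 CPM in IgG IP replicates 1, 2 and 3, against 877, 1239 and 549 in MDH2 IP and 592, 646 and 325 in the SMI, after scaling of the libraries by the TMM method. Every IgG IP library was above every other library, whereas MDH2 IP and SMI overlapped. The means were 3076 ± 874 (SD, n = 3) in IgG IP, 888 ± 345 in MDH2 IP and 521 ± 172 in the SMI.

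The log2 fold change of NEAT1 was 2.58 ± 0.30 (SE) for IgG IP over SMI (adjusted p = 0.000232, edgeR), and 16.4% of the 15709 genes tested were higher in that comparison. NEAT1 was lower in MDH2 IP than in IgG IP, by a log2 fold change of -1.74 ± 0.32 (adjusted p = 0.00959, edgeR), in which 7.77% of the 15492 genes tested were lower and 4.64% higher. Between MDH2 IP and SMI the difference was 0.76 ± 0.33 and did not pass the test (adjusted p = 0.106, edgeR), with 16.4% of the 17057 genes tested higher. These comparisons share libraries. Samples of MDH2 IP and SMI with the same replicate number varied together, and with that number as a block the difference passed (0.73 ± 0.0675, adjusted p = 4.12e-11, edgeR). The share of 16.4% is from the fit without the block. In the window test the block raised the share of all windows called higher from 4.04 to 7.39%. The NEAT1 difference between MDH2 IP and SMI also passed without MDH2 IP replicate 3 (1.03, adjusted p = 0.0247, edgeR). The difference between MDH2 IP and IgG IP was lost without MDH2 IP replicate 1 (-1.70, adjusted p = 0.0551, edgeR). The values are shares of a library, so that more of an RNA and less of all others cannot be told apart, nor can more cells with it and more of it per cell.

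The levels of MALAT1 overlapped between all groups. The replicates gave 3636, 4078 and 3001 CPM in MDH2 IP, 3750, 4824 and 3658 in the SMI and 3778, 5235 and 3536 in IgG IP. No group stood apart, and the means were 3571 ± 541 (SD, n = 3), 4078 ± 648 and 4183 ± 919. The log2 fold change was -0.21 ± 0.17 (SE) for MDH2 IP over SMI (adjusted p = 0.377, edgeR). It was -0.18 ± 0.21 against IgG IP (adjusted p = 0.605, edgeR), and 0.06 ± 0.20 between IgG IP and SMI (adjusted p = 0.851, edgeR). With the replicate number as a block, MALAT1 was lower in MDH2 IP than in the SMI by the same amount (-0.21 ± 0.0543, adjusted p = 0.00103, edgeR), in a comparison in which 17.9% of genes were lower without the block.

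**Figure D1:**
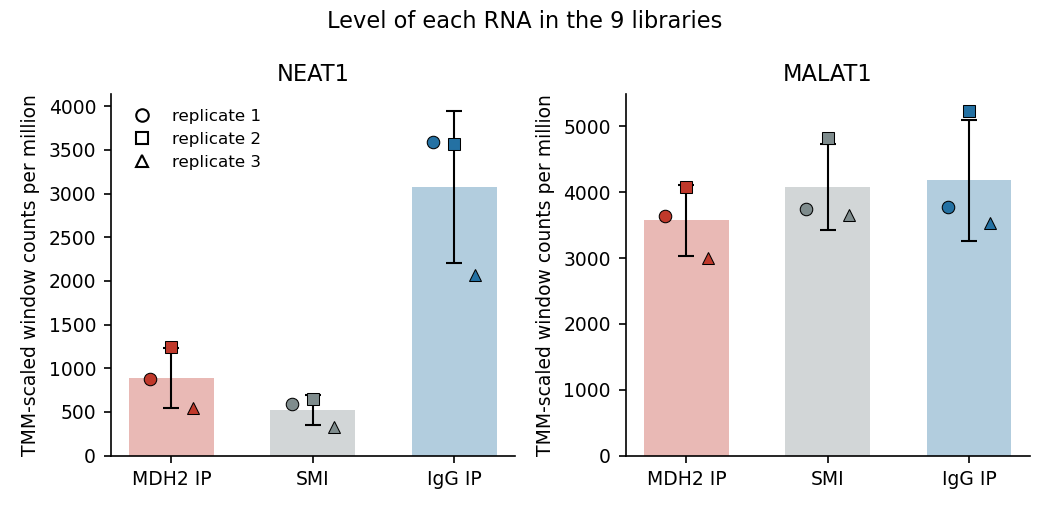
TMM-scaled window counts in CPM (linear axis from 0) of NEAT1 and MALAT1 in each group; bars are means, error bars SD of 3 replicates, and symbols the replicates. NEAT1 lies between 2067 and 3588 in IgG IP and does not pass 1239 elsewhere, while the 3 groups overlap for MALAT1.

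Per length, MALAT1 stood above NEAT1 in every group. Per 100 windows of the feature, MALAT1 had 817 ± 124 CPM (SD, n = 3) in MDH2 IP, 933 ± 148 in the SMI and 957 ± 210 in IgG IP. NEAT1 had 78.1 ± 30.4, 45.8 ± 15.1 and 270 ± 76.9.

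The ratio of NEAT1 to MALAT1 counts within a library does not depend on how libraries are scaled. On the log2 scale it was -2.05, -1.72 and -2.45 in MDH2 IP replicates 1, 2 and 3, -2.66, -2.90 and -3.49 in the SMI, and -0.07, -0.55 and -0.77 in IgG IP. No pair of groups overlapped: the SMI was lowest, MDH2 IP lay 0.94 above it, and IgG IP lay 2.55 above the SMI and 1.61 above MDH2 IP. Each difference had p = 0.1 in an exact two-sided permutation test, the smallest that 3 libraries against 3 can give.

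Along NEAT1, the part shared by both isoforms had the denser counts, and it held more counts than all the rest in every library but SMI replicate 1 and IgG IP replicate 1. The first 182 windows, those within the short form, held 53.6, 55.2 and 59.7% of NEAT1 counts in MDH2 IP replicates 1, 2 and 3, 49.9, 68.3 and 52.6% in the SMI, and 42.4, 66.4 and 58.5% in IgG IP. The groups overlapped, and the exact two-sided permutation tests gave p = 1.0 for MDH2 IP against SMI and p = 0.9 for each of the others. Per window, the short part had between 3.86 and 11.3 times the counts of the remaining 955 windows over the 9 libraries.

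Both parts of NEAT1 were also tested apart, which was added after the values were seen, and gave values close to those of the whole. For IgG IP over SMI the log2 fold change was 2.51 (adjusted p = 0.000744, edgeR) in the short part and 2.68 (0.000383) in the rest. For MDH2 IP over IgG IP it was -1.73 (adjusted p = 0.00942, edgeR) and -1.75 (0.0187). For MDH2 IP over SMI it was 0.69 (adjusted p = 0.160, edgeR) and 0.84 (0.0882), and with the replicate number as a block 0.72 (adjusted p = 5.15e-11) and 0.78 (1.66e-07).

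**Figure D2:**
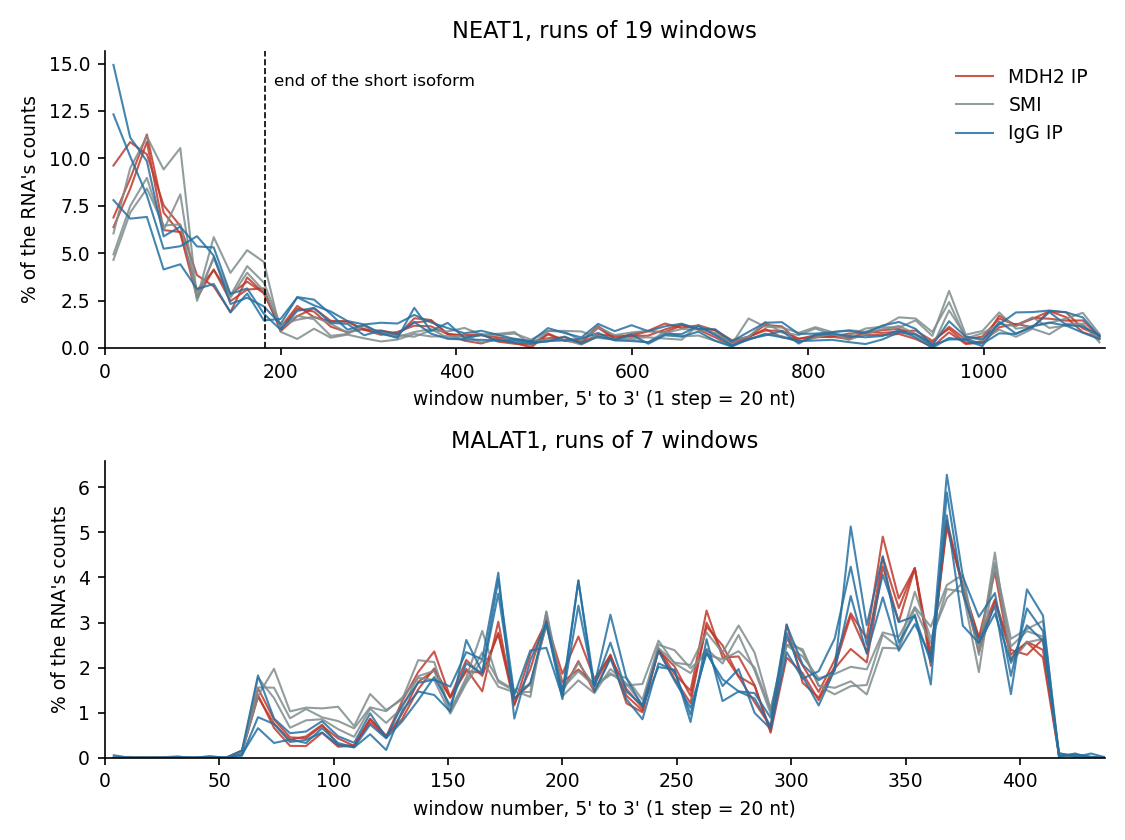
Share of each RNA's own counts (%, linear axis) in consecutive runs of windows against window number from the 5′ to the 3′ end, with a line per library; the dashed line is the end of short NEAT1. NEAT1 counts drop past window 182. MALAT1 counts begin at about window 63, stay low in all 3 groups up to about window 129, lower in both IPs than in the SMI, and end by about window 417.

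A window was tested where 3 or more of the 6 libraries of a comparison had 10 or more counts in it, and called where the adjusted p did not pass 0.05 and the log2 fold change was 1 or more in size. Between MDH2 IP and SMI, 147 windows of NEAT1 were tested: 4 were higher in MDH2 IP (windows 4, 51, 52 and 229) and 2 lower (968 and 969). In this comparison 4.04% of all 51108 windows tested were higher and 10% lower, and among windows of other lncRNA genes 6.79% and 27.3%. The share of NEAT1 windows called higher, 2.72%, was below the background on this scale. The median of the tested NEAT1 windows was 0.31, beside 0.05 over all windows. Of the 147 windows, 30 passed the count filter through MDH2 IP alone and 22 through the SMI alone, and among the 56 with at least 10 counts in all 6 libraries 2 were called, both higher.

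Window 52 held 82, 96 and 46 counts in MDH2 IP replicates 1, 2 and 3, 19, 32 and 16 in the SMI and 67, 52 and 21 in IgG IP. Its MDH2 IP and SMI counts did not overlap, and its log2 fold change was 1.56 ± 0.31 (SE; adjusted p = 0.00794, edgeR). Window 4, near the 5′ end, showed 48, 43 and 22 in MDH2 IP and 10, 17 and 6 in the SMI. In IgG IP it had 33, 56 and 16. For MDH2 IP over SMI its log2 fold change was 1.57 ± 0.37. Window 4 passed the count filter through MDH2 IP alone, as SMI replicate 3 was below 10 counts, so its call is limited and it is given with no test. Window 229, past the end of the short form, had 16, 17 and 10 counts against 6, 2 and 2 in the SMI and 24, 13 and 8 in IgG IP (1.88 ± 0.52). It passed the count filter through MDH2 IP alone, so its call says little. All of these were richer in IgG IP than in MDH2 IP once scaled. The mean CPM of window 52 were 10.2 in MDH2 IP, 2.45 in the SMI and 21.9 in IgG IP. Of the 4 windows higher in MDH2 IP, 3 were also called higher in IgG IP over SMI, and window 229 was not tested there. That comparison shares the SMI libraries and called 143 of its 149 tested NEAT1 windows higher, so the overlap says little. Window 55, the richest in both MDH2 IP and the SMI, held 116, 103 and 34 counts in MDH2 IP replicates 1, 2 and 3 and 46, 53 and 29 in the SMI, and its log2 fold change of 0.75 ± 0.32 did not pass the test (adjusted p = 0.474, edgeR).

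The windows that were lower in MDH2 IP lie far down the long form. Window 968 held 16, 6 and 4 counts in MDH2 IP replicates 1, 2 and 3, and 35, 22 and 17 in the SMI. The IgG IP libraries had 22, 3 and 1 there. For MDH2 IP over SMI the log2 fold change was -1.73 ± 0.43. Window 968 passed the count filter through the SMI alone, as MDH2 IP replicates 2 and 3 were below 10 counts, so its call is limited and it is given with no test. It holds a run of 16 T. Since reads of a run of this kind may align at several places and up to 10 places were kept, its counts are uncertain.

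**Figure D3:**
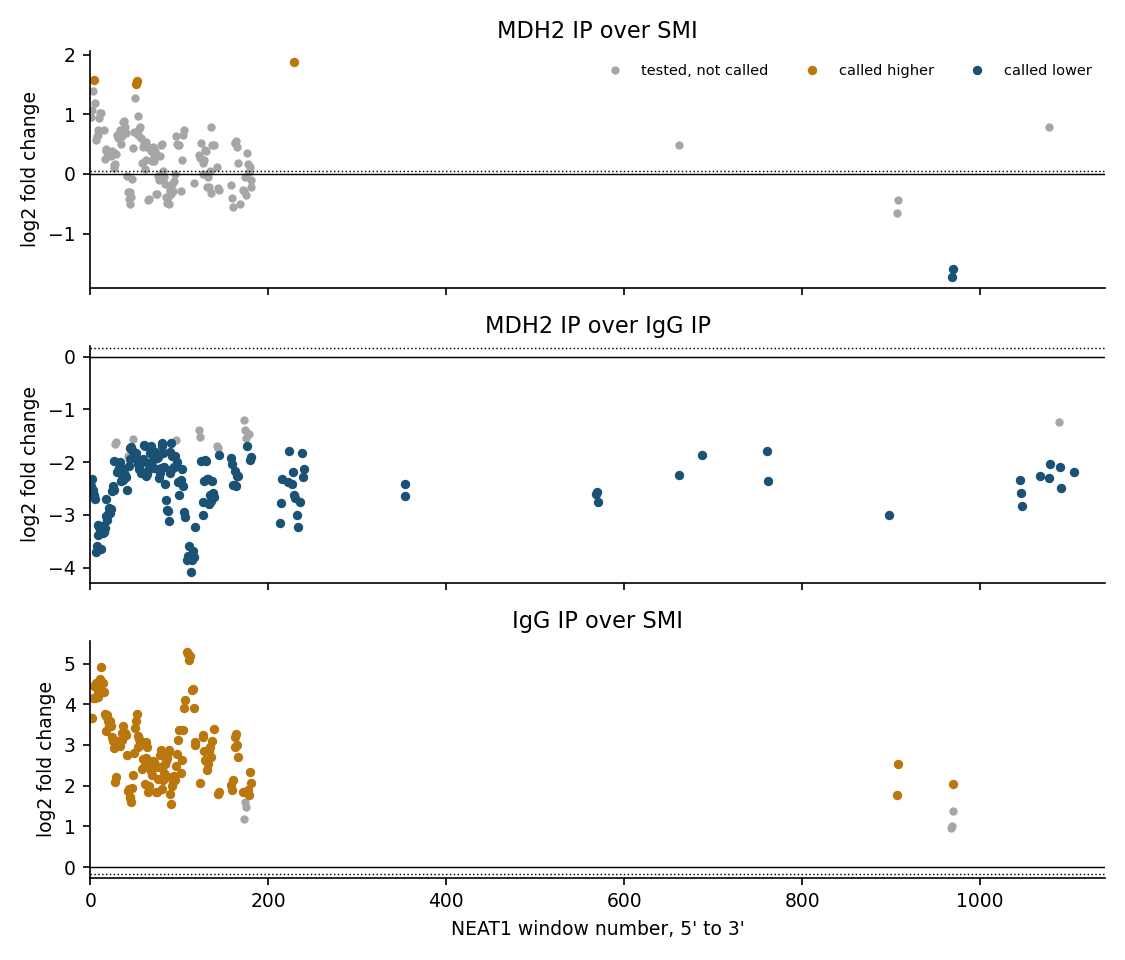
Log2 fold change of each tested NEAT1 window against window number for the 3 comparisons, with called windows in color; the solid line is 0 and the dotted line the median of all windows tested. MDH2 IP over SMI lies around 0 with 4 windows called higher and 2 lower, while the tested windows of MDH2 IP over IgG IP all lie below 0 and those of IgG IP over SMI all above.

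Against IgG IP, nearly all NEAT1 windows that could be tested were lower in MDH2 IP. Of 183 windows tested, 168 were lower (4.71% of all 30427 windows tested, 11.5% of those of other lncRNA genes) and 0 higher (edgeR; DESeq2 gave 0, and 0 had an unadjusted p under 0.05). In this comparison 0.148% of all windows were higher. The median was -2.27, beside 0.16 over all windows, with a range from -4.08 to -1.20. Most of the long form had too few counts for a test: 110 of the tested windows lay among windows 1 to 114 and 45 among windows 115 to 228, and no window between 911 and 1024 was tested. All 53 windows with at least 10 counts in all 6 libraries were lower. The count fell to 96 without MDH2 IP replicate 1 and to 87 without MDH2 IP replicate 3.

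IgG IP over SMI gave 143 higher windows of 149 tested, with 6.14% of all 26669 windows tested higher and 11.1% of those of other lncRNA genes. The median log2 fold change was 2.81, beside -0.18 over all windows. A nearly unbroken run of 98 called windows covered windows 1 to 99, over 2010 nt from the 5′ end. The highest values came from windows 109 and 112, which were chosen for it after the values were seen and passed the count filter through IgG IP alone, so that they had to differ and are given with no test. Window 109 had 11, 13 and 10 counts in IgG IP against 0, 4 and 1 in the SMI and 6, 5 and 3 in MDH2 IP, with a log2 fold change of 5.29 ± 0.56 (SE). Window 112 had 26, 26 and 16 counts against 4, 5 and 3 in the SMI (5.18 ± 0.47). Of the 149 windows, 24 passed the filter through IgG IP alone and 30 through the SMI alone. All 48 windows with at least 10 counts in all 6 libraries were higher.

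The call counts depend on how libraries are scaled, because the window test scales by windows and the gene test by genes. On the scale of the gene test, tried after the data were seen, the median of all windows moved by 0.40 for MDH2 IP over SMI, by 0.63 for MDH2 IP over IgG IP and by -0.41 for IgG IP over SMI. NEAT1 then had 15 windows higher (10.2% of those tested, beside 14.5% of all windows) and 0 lower in MDH2 IP than in the SMI. It had 88 lower than in IgG IP (48.1%, beside 2.23%) and 123 higher in IgG IP than in the SMI (82.6%, beside 4.41%). The 88 and 123 windows were all among those called before. With the replicate number as a block, 8 NEAT1 windows were higher in MDH2 IP than in the SMI, the 4 above among them (5.44%, beside 7.39% of all windows), and 33 on the scale of the gene test (22.4%, beside 21.3%). With total counts as library size it was 39 (26.5%, beside 23.8%), so that whether NEAT1 lay below or above the background for MDH2 IP over SMI turned with the scale. The median of NEAT1 relative to all windows was 0.27 for MDH2 IP over SMI on both scales.

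The profile of MALAT1 was much alike between libraries, and least alike between IgG IP and SMI. Pearson's r was taken over 141 windows that do not overlap, on the log2 of each window's share of the RNA's counts with a constant added. It was between 0.976 and 0.979 within MDH2 IP, between 0.983 and 0.989 within the SMI and between 0.921 and 0.947 within IgG IP. For MDH2 IP with SMI libraries it was between 0.938 and 0.965. It was between 0.932 and 0.966 for MDH2 IP with IgG IP and between 0.880 and 0.951 for IgG IP with SMI. Windows within a library share its depth, and in the sparser counts of NEAT1 (377 windows) r was between 0.462 and 0.731. The richest MALAT1 window in the SMI, window 378, held 389, 299 and 196 counts in MDH2 IP replicates 1, 2 and 3, 401, 510 and 393 in the SMI and 81, 100 and 48 in IgG IP. Window 351, the richest in MDH2 IP, had 477, 387 and 252, against 278, 408 and 279 in the SMI and 85, 83 and 53 in IgG IP. Their log2 fold changes of MDH2 IP over SMI were -0.76 ± 0.21 (adjusted p = 0.0419, edgeR, under the fold needed for a call) and 0.02 ± 0.22, and neither was called.

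MALAT1 counts were cut off sharply at both ends. Summed over the 9 libraries, window 62 held 5 counts, window 63 held 271 and window 64 held 467, where window 63 is the first that reaches the transcript start at chr11:65499045. The 50 windows listed before it held 23, 25 and 15 counts in MDH2 IP, 12, 27 and 11 in the SMI and 3, 0 and 5 in IgG IP. At the 3′ end, windows 413, 414, 415 and 416 held 350, 111, 28 and 17 counts, and window 417 held 1.

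The triple helix lies within this fall. The windows that touch the last 80 nt of MALAT1 held 51, 48 and 42 counts in MDH2 IP, 91, 149 and 95 in the SMI and 20, 11 and 5 in IgG IP, most of them in windows 413 and 414. The 17 windows wholly past the cut held 28, 20 and 17 counts in MDH2 IP, 28, 20 and 23 in the SMI and 13, 8 and 5 in IgG IP, or at most 0.124% of MALAT1 counts in any library. Most of these windows lie beyond the mascRNA (chr11:65506117-65506174). With the start at the middle of its range, windows 419, 420 and 421 are those that touch the mascRNA. Summed over the 9 libraries they held 5, 8 and 6 counts. The windows that touch the last 80 nt of NEAT1 held 20, 11 and 6 counts in MDH2 IP, 10, 8 and 5 in the SMI and 17, 14 and 6 in IgG IP.

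Between MDH2 IP and SMI, 113 of the 352 MALAT1 windows tested were lower in MDH2 IP and 2 higher, or 32.1% and 0.568%. The background was 10% and 4.04% for all windows, and 27.3% and 6.79% for windows of other lncRNA genes, so that the share of lower windows was near that of other lncRNAs. The median log2 fold change was -0.75, or -0.80 relative to all windows. On the scale of the gene test, 33 of the 113 windows remained lower (9.38%, beside 5.56% of all windows) and 5 were higher (1.42%, beside 14.5%), and the median relative to all windows was -0.79. Without MDH2 IP replicate 1 the count of lower windows was 65, without MDH2 IP replicate 3 it was 63 and without SMI replicate 2 it was 74. Of the 352 windows, 26 passed the count filter through the SMI alone, and among the 326 with at least 10 counts in all 6 libraries 92 were lower and 2 higher.

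The lower windows were densest near the 5′ end of MALAT1. Windows 68 to 129, a stretch of 1270 nt marked out after the calls were seen, held 56 of the 113 among 62 tested, with a median log2 fold change of -1.59, and on the scale of the gene test 25 of the 33. Its bounds are those of called runs, so these values describe the calls and test nothing. Window 85 held 22, 18 and 20 counts in MDH2 IP replicates 1, 2 and 3, 73, 106 and 95 in the SMI and 10, 6 and 2 in IgG IP, and every SMI library was above every MDH2 IP library (-2.34 ± 0.28, adjusted p = 3.02e-06, edgeR). Window 106 had 11, 14 and 7 counts against 24, 46 and 69 in the SMI (-2.25 ± 0.37), and window 125 had 19, 14 and 5 against 36, 67 and 54 (-2.22 ± 0.34). Windows 106 and 125 passed the count filter through the SMI alone, as MDH2 IP replicate 3 was below 10 counts, so their calls are limited and they are given with no test. Another dense run of lower windows, 278 to 293, lay in the 3′ part, with window 290 at -1.98.

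Over the same 62 windows the median for IgG IP over SMI, a comparison that shares the SMI libraries, was -0.60, beside 0.24 over all tested MALAT1 windows, and 1 window was lower. Between MDH2 IP and IgG IP, which do not share the SMI, the medians were -0.70 over 44 tested windows of the stretch and -0.76 over 283 elsewhere.

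**Figure D4:**
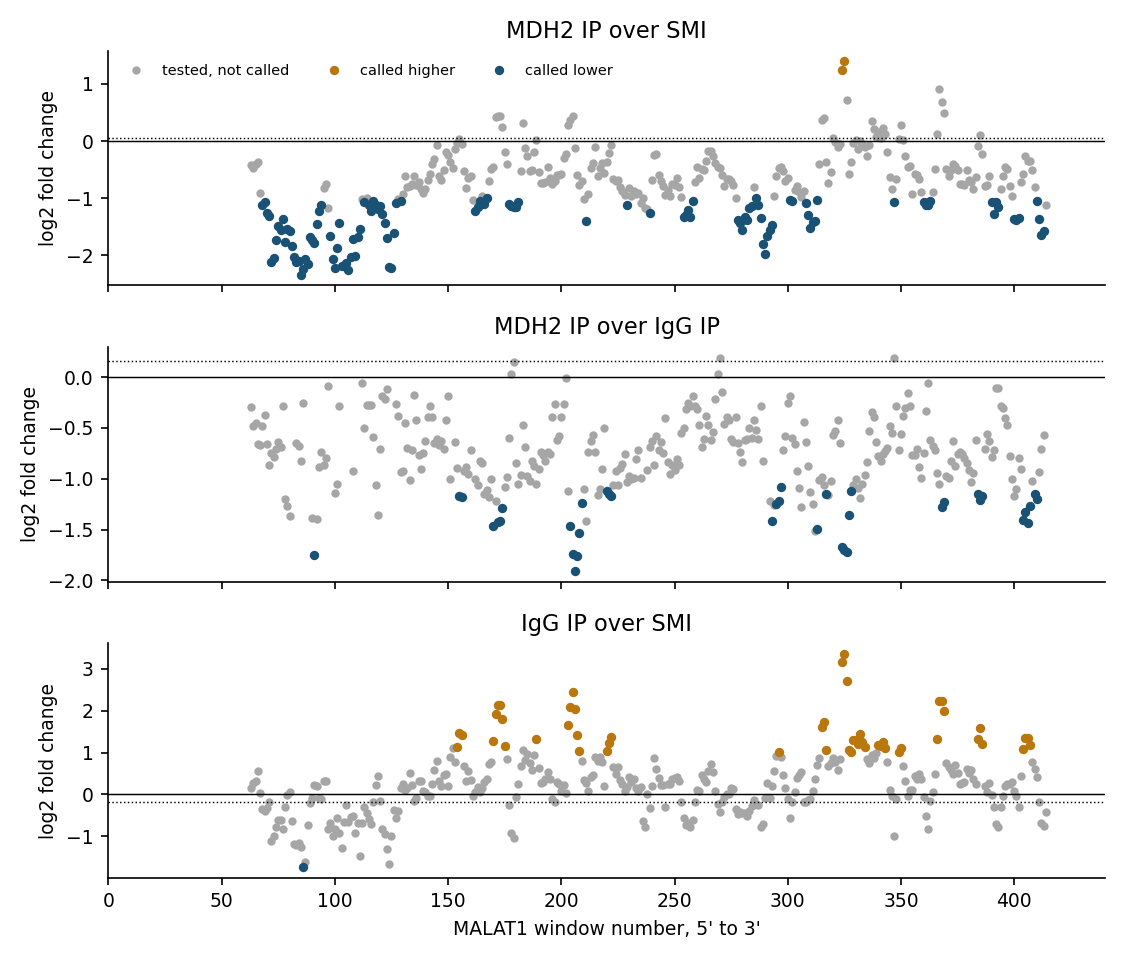
Log2 fold change of each tested MALAT1 window against window number for the 3 comparisons, with called windows in color; the solid line is 0 and the dotted line the median of all windows tested. In MDH2 IP over SMI 56 of the 62 tested windows between 68 and 129 are called lower, and the peak of IgG IP over SMI at window 325 is also the highest point of MDH2 IP over SMI.

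With the window numbers divided into 10 equal runs, the SMI had a larger share of MALAT1 counts near the 5′ end than both IPs and a smaller share in the eighth run. The second run held 2.60, 3.24 and 2.96% of MALAT1 counts in MDH2 IP, 4.44, 4.79 and 5.20% in the SMI and 3.65, 2.25 and 1.55% in IgG IP. The eighth run, windows 307 to 350, held 18.4, 15.5 and 16.9% in MDH2 IP, 13.5, 11.9 and 11.7% in the SMI and 15.9, 18.7 and 18.4% in IgG IP. In both runs the SMI did not overlap either IP. Of the 10 runs, 7 did not overlap between MDH2 IP and SMI, 7 between IgG IP and SMI and 2 between MDH2 IP and IgG IP, and for NEAT1 these counts were 2, 2 and 0. None passed the exact permutation tests after adjustment over the 60 comparisons (lowest adjusted p = 0.3), as 3 libraries against 3 cannot.

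The windows of MALAT1 that were higher in MDH2 IP were 324 and 325, in the eighth of the 10 runs. Window 325 held 176, 125 and 106 counts in MDH2 IP replicates 1, 2 and 3, 49, 46 and 40 in the SMI and 63, 84 and 48 in IgG IP. The MDH2 IP and SMI counts did not overlap, and the log2 fold change was 1.39 ± 0.25 (adjusted p = 0.0026, edgeR). In IgG IP over SMI it was 3.35 ± 0.32 (adjusted p = 6.48e-16, edgeR), the highest of any MALAT1 window tested, and MDH2 IP was below IgG IP there by -1.70 ± 0.31 (adjusted p = 0.000232, edgeR). Window 367 has no run of 3 G, while window 368, which overlaps it, does. Window 367 held 163, 147 and 103 counts in MDH2 IP, 56, 78 and 60 in the SMI and 44, 53 and 32 in IgG IP. It too was higher in IgG IP than in the SMI (2.22 ± 0.31, adjusted p = 9.56e-09, edgeR), and between MDH2 IP and SMI it just missed the call (0.91 ± 0.24, adjusted p = 0.0515, edgeR). Window 173 held 226, 181 and 137 counts in MDH2 IP replicates 1, 2 and 3, 87, 137 and 131 in the SMI and 106, 75 and 51 in IgG IP: it was higher in IgG IP than in the SMI (2.13 ± 0.28, adjusted p = 2.27e-09, edgeR) and not called between MDH2 IP and SMI (0.45 ± 0.22, adjusted p = 0.737, edgeR).

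In IgG IP over SMI 51 MALAT1 windows of 352 tested were higher and 1 lower (window 86), or 14.5% and 0.284%, with the background at 6.14% and 6.4% over all windows and 11.1% and 17.8% over those of other lncRNA genes. The higher windows lay in short runs, of which windows 324 to 334 were the longest at 250 nt. Both windows higher in MDH2 IP were among them, and none of the 113 windows lower in MDH2 IP was. Those calls use the same SMI libraries, so these overlaps are not separate results. The count of windows higher in IgG IP was 12, 13 and 13 without SMI replicates 1, 2 and 3 and 29 without IgG IP replicate 2. On the scale of the gene test 15 were higher (4.26%, beside 4.41% of all windows) and 11 lower (3.12%, beside 12.5%). Between MDH2 IP and IgG IP, 38 of 327 windows were lower in MDH2 IP and 0 higher (edgeR; DESeq2 gave 0, and 0 had an unadjusted p under 0.05), with the background at 4.71% and 0.148%. Windows of other lncRNA genes were lower in 11.5%, and those of MALAT1 in 11.6%, so that MALAT1 lay at the share of other lncRNAs. Of the 327, 143 passed the count filter through MDH2 IP alone. The 38 calls were lost on the scale of the gene test, and the count was 7, 1 and 2 without MDH2 IP replicates 1, 2 and 3. It was 12 without replicate 2 of IgG IP and 63 without its replicate 1.

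Many, not all, of the windows higher in IgG IP carried runs of G. This feature was looked for after the sequences were seen and is given as a description. The motif GGGG occurred in 24.3% of all MALAT1 windows, each taken as its 69 nt (its reverse complement CCCC in 48 of 437), in 32 of the 51 windows higher in IgG IP over SMI (62.7%) and in 43 of the 300 called neither way (14.3%). It occurred in 26 of the 38 MALAT1 windows lower in MDH2 IP than in IgG IP (68.4%), against 49 of the other 289 (17.0%), and in 9 of the 113 lower in MDH2 IP than in the SMI (7.96%). In NEAT1, GGGG occurred in 18.3% of all windows (CCCC in 13.4%) and in 73 of the 143 windows higher in IgG IP over SMI (51.0%). Nearly all tested NEAT1 windows were called there, so that this share is that of the windows with enough counts. For MDH2 IP over IgG IP the NEAT1 windows differed little in GGGG, which occurred in 83 of the 168 lower (49.4%) and in 8 of the 15 others (53.3%). Their mean share of G was 33.2% in the lower windows and 26.0% in the others. Window 367 of MALAT1 and window 12 of NEAT1 were among the highest in IgG IP over SMI (2.22 and 4.92) and hold no GGGG. Window 367 overlaps window 368, however, which holds GGGG and had 2.23, so that it is not a separate site without the motif. Called windows overlap their neighbors and share bases with them, so that these counts are not of separate sites.

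Over tested windows that do not overlap, the log2 fold change of IgG IP over SMI was higher where the share of G was higher. Pearson's r was 0.69 over 51 NEAT1 windows and 0.30 over 117 MALAT1 windows. For MDH2 IP over SMI it was 0.53 over 49 and 0.36 over 117. For MDH2 IP over IgG IP it was -0.41 over 62 NEAT1 windows and 0.0032 over 111 MALAT1 windows, so that in MALAT1 the share of G did not go with this comparison although GGGG was more frequent in its lower windows. The median for IgG IP over SMI was 2.29 over the 18 NEAT1 windows with at most 26% G and 3.74 over the 17 with at least 40% G. In MALAT1 the share of A went the other way, with r = -0.50 for IgG IP over SMI and -0.55 for MDH2 IP over SMI. The windows are from the same libraries, the comparisons share libraries, and base shares within a window are tied to each other.

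**Figure D5:**
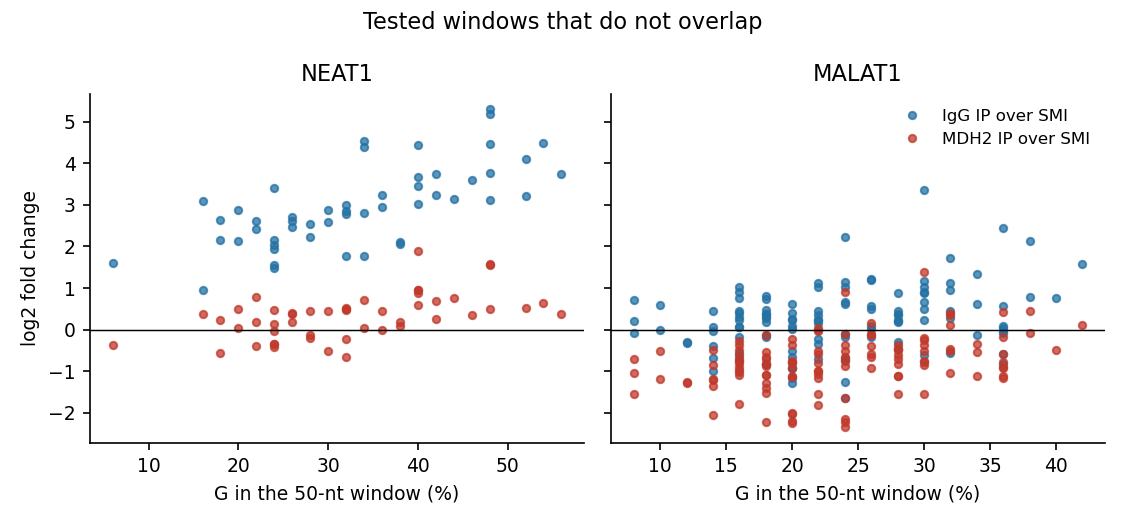
Log2 fold change of tested windows that do not overlap against their share of G (%), for NEAT1 (left) and MALAT1 (right), with a point per window and the comparisons IgG IP over SMI and MDH2 IP over SMI in 2 colors. NEAT1 windows with at least 40% G have a median of 3.74 in IgG IP over SMI, those with at most 26% G a median of 2.29.

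Across the 9 libraries, the genes whose level was most like that of NEAT1, among 3484 genes with at least 100 counts in each library, were F7 (Pearson's r of log2 CPM = 0.978), TMCO3 (0.976), ANKRD11 (0.975), CELSR1 (0.974) and SYT7 (0.974). F7 encodes coagulation factor VII, made by hepatocytes, and was counted 1397, 1760 and 318 times in the MDH2 IP libraries, 503, 990 and 314 in the SMI and 2582, 3755 and 578 in IgG IP. Against the library totals it was, like NEAT1, highest in IgG IP. The genes most like MALAT1 were TNRC6B (0.934), NRCAM (0.901), MANBA (0.887), KMT5B (0.883) and SEC63 (0.874). Between NEAT1 and MALAT1 r was 0.38. The libraries fall into 3 groups, and these values describe the groups as much as the libraries.

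Other lncRNAs, nuclear or cytoplasmic, did not follow a common course. Of 12 other nuclear lncRNAs 8 were tested, and in MDH2 IP over SMI 1 rose and 3 fell (12.5% and 37.5%, beside 16.4% and 17.9% of all genes and 8.65% and 16.4% of other lncRNA genes), with a median of -0.63 beside -0.01 over all genes and -0.23 over 2415 other lncRNA genes. HOTAIRM1, transcribed from the HOXA cluster, rose (1.28, adjusted p = 0.0306, edgeR), and JPX (-1.26), FTX (-0.97) and LINC-PINT (-0.82) fell. In IgG IP over SMI 3 rose, HOTAIRM1 (1.96), KCNQ1OT1 (1.11), an antisense RNA of the imprinted KCNQ1 locus, and CDKN2B-AS1 (0.76), and TUG1 (-0.81) and JPX (-0.51) fell, with a median of 0.05 (37.5% and 25.0%, beside 16.4% and 11.4% of all genes). In MDH2 IP over IgG IP 5 fell, between -1.22 (CDKN2B-AS1) and -0.66 (JPX), and TUG1 rose (0.77, adjusted p = 0.0488, edgeR), with a median of -0.70 beside 0.02 over all genes. The 5 are 62.5% of those tested, beside 7.77% of all genes and 12.5% of other lncRNA genes. Of 10 lncRNAs found mainly in the cytoplasm 8 were tested. EPB41L4A-AS1, OIP5-AS1 and DANCR (37.5%) fell in MDH2 IP over SMI (-1.08, -0.98 and -0.75), beside 17.9% of all genes and 16.4% of other lncRNA genes. The same 3 fell in IgG IP over SMI (-1.23, -0.95 and -0.95), beside 11.4% and 4.59%. Both comparisons share the SMI libraries, so these are not separate results. In MDH2 IP over IgG IP the most counted, SNHG1 and ZFAS1, had 0.61 and -0.09 and did not pass the test (adjusted p = 0.0926 and 0.802, edgeR).

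The mRNAs of paraspeckle proteins were mixed. Of 18, all tested, 8 rose and 2 fell in MDH2 IP over SMI (44.4% and 11.1%, beside 16.4% and 17.9% of all genes, median 0.35). DAZAP1, an RNA-binding protein needed for intact paraspeckles, rose most (1.24, adjusted p = 0.000329, edgeR), HNRNPA1 (0.63) and NONO (0.59) rose too, and NUDT21 (-0.80) and PSPC1 (-0.67) fell. In IgG IP over SMI 5 rose, led by DAZAP1 (2.47) and RBM14 (1.45), and 4 fell (27.8% and 22.2%, beside 16.4% and 11.4% of all genes, median 0.10). In MDH2 IP over IgG IP NONO (1.00) and EWSR1 (0.65) rose and DAZAP1 (-1.13) and RBM14 (-0.87) fell (11.1% each, beside 4.64% and 7.77%, median 0.20). Of 14 mRNAs of nuclear speckle proteins, SRRM2 (1.06), SRSF5 (1.01) and ACIN1 (0.80) rose in MDH2 IP over SMI (21.4%, beside 16.4% of all genes, median 0.21). In MDH2 IP over IgG IP 8 rose, led by SRSF11 (0.98) (57.1%, beside 4.64%, median 0.71). In IgG IP over SMI 2 rose and 3 fell (14.3% and 21.4%, beside 16.4% and 11.4%, median -0.40).

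Of the genes that act on the 3′ ends, RPPH1, the RNA of RNase P, was far lower in both IPs than in the SMI. It held 1658, 1903 and 1503 counts in MDH2 IP replicates 1, 2 and 3, 8672, 12285 and 9807 in the SMI and 479, 245 and 182 in IgG IP, with log2 fold changes of -2.33 ± 0.20 (adjusted p = 0.000278, edgeR) for MDH2 IP over SMI and -2.86 ± 0.19 (adjusted p = 1.27e-05, edgeR) for IgG IP over SMI. ELAC2, the RNase Z that trims the other side of the tRNA-like fold, rose in MDH2 IP over SMI (0.65, adjusted p = 0.0117, edgeR) and over IgG IP (0.74, adjusted p = 0.047, edgeR). METTL16, which binds the MALAT1 triple helix, had -0.20 and did not pass (adjusted p = 0.30, edgeR).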

How the data were processed

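The authors deposited counts of cross-link sites per window for 9 eCLIP libraries, not normalized. They trimmed reads with cutadapt, aligned them to GRCh38 (hg38 in the submitters' notes) with GENCODE genes by STAR, kept up to 10 alignments per read, collapsed PCR copies with the random barcodes of the reads, placed the cross-link site next to the start of the alignment, and counted sites in 50-nt windows every 20 nt with an HTSeq-based tool. Windows without any count are not listed. All 9 columns were matched to samples by name and 0 were left unused.

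Gene names came from GENCODE v44, matched for 33751 of 34950 Ensembl identifiers. The windows were made with GENCODE v23, whose file was not used here, so both RNAs were placed by their number of windows, by transcript ends in v44 and by small gene models inside them whose counts appear under both identifiers. Window 26 of NEAT1 and the first window of such a model had the same counts in all 9 libraries. For MALAT1 the match of this kind rested on 5 counts. Placed at the middle of its 19-nt range, window 63 is the first to reach the RefSeq start at 65499045, near which counts set in. With the lowest start of the range it would not reach it. Sequences were read from hg38, and transcript starts and the mascRNA from RefSeq. The reference splits short NEAT1 in v44 into exons, and the single exon feature of the table was used as it stands.

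The tests were run in R 4.3.3 with edgeR 4.0.16 (TMM, quasi-likelihood, Benjamini-Hochberg over all features), on genes (two-sided) and on windows (one-sided in each direction, p multiplied by how many tested windows overlap), where 3 or more of the 6 libraries had 10 or more counts, and fitted to the groups compared alone. The study's own window test is DESeq2-based, and edgeR stands in its place. Scaled levels (counts per library total, TMM) were taken over genes. Shares and ratios were compared by exact permutation tests (scipy 1.17.1, Python 3.11.15). Windows named were the 3 with the most counts per library total in SMI and MDH2 IP and the 3 with the highest and lowest log2 fold change of MDH2 IP over SMI, without overlaps. Genes named from lists were those that passed. The members, lists and rules were chosen with earlier results of these data known. The tests were tried on simulated counts.

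The replicate numbers were taken to pair MDH2 IP and SMI, since the deviations of same-numbered libraries correlated at 0.13, 0.48 and 0.50. The labels do not say that replicates came from separate cultures, so p-values measure the spread between these libraries, which may be technical. Alternatives were DESeq2 1.42.0, other scalings, filters and fits, the block, and leaving out each library. Intervals and errors cover these libraries only.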

Additional observations from a re-analysis of the deposited data

How the results depend on the processing

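Of 356 alternatives to 25 results, 263 kept the direction, call or size. For NEAT1 in MDH2 IP over SMI, the gene difference passed the test with DESeq2 (0.78, adjusted p = 0.0452), with no filter (0.75, adjusted p = 9.83e-06, edgeR) and with the replicate block (0.73); over all its alternatives the adjusted p (edgeR or DESeq2) was between 4.12e-11 and 0.296. MALAT1 passed with the replicate block alone (-0.21). MALAT1 in IgG IP over SMI changed sign with total counts as library size (-0.0877) and with no filter (-0.13), and was never called.

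Leaving out each library in turn gave the following ranges. For MDH2 IP over SMI the NEAT1 gene difference was between 0.45 and 1.03. It was between -2.03 and -1.46 against IgG IP, and between 2.34 and 2.81 when IgG IP was set against the SMI. That of MALAT1 was between -0.30 and -0.08, between -0.29 and 0.01, and between -0.14 and 0.17. It changed sign without IgG IP replicate 2 (0.015 against IgG IP, -0.14 in IgG IP over SMI) and, for IgG IP over SMI, without SMI replicate 1 (-0.01) or 3 (-0.01). Windows higher in MDH2 IP than in the SMI numbered between 0 (without SMI replicate 3) and 5 for NEAT1 and between 1 and 3 for MALAT1, and lower windows between 0 (without SMI replicate 1) and 2 and between 63 and 118. Windows lower in MDH2 IP than in IgG IP numbered between 87 and 165 for NEAT1 and between 1 and 63 for MALAT1. Windows higher in IgG IP than in the SMI numbered between 97 and 134 and between 12 and 67, and lower MALAT1 windows between 0 and 2. The short-part share changed sign for MDH2 IP minus SMI (between -4.25 and 4.93 percentage points), MDH2 IP minus IgG IP (between -6.25 and 5.76) and IgG IP minus SMI (between -6.50 and 5.50).

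Counts of NEAT1 windows higher in MDH2 IP than in the SMI (4) were 2 with DESeq2, 39 with total counts, 8 with a minimum of 30 counts, 8 without the multiplication by overlapping windows, 8 in a fit of all 9 libraries, 8 with the replicate block, and 15 and 33 on the scale of the gene test without and with the block. Lower NEAT1 windows (2) were 0 with total counts, 5 and 0 with a minimum of 5 and 30 counts, and 0 on the scale of the gene test. MALAT1 windows higher (2) were 10 with total counts and 5 with a minimum of 30 counts or on the scale of the gene test, without or with the block. Lower MALAT1 windows (113) were 24 with total counts, 29 with a minimum of 30 counts, and 33 and 47 on the scale of the gene test without and with the block.

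NEAT1 windows lower in MDH2 IP than in IgG IP (168) were 292 and 41 with a minimum of 5 and 30 counts and 88 and 84 on the scale of the gene test. MALAT1 windows (38) were 14 with DESeq2, 18 with total counts, 11 and 21 with a minimum of 5 and 30 counts, 70 without the multiplication and 0 on the scale of the gene test, without or with the block. NEAT1 windows higher in IgG IP than in the SMI (143) were 232 and 26 with a minimum of 5 and 30 counts. MALAT1 windows higher (51) were 30 with DESeq2, 17 with a minimum of 5 counts, 22 in a fit of all 9 libraries, and 15 and 13 on the scale of the gene test. Lower MALAT1 windows (1) were 0 with DESeq2, total counts or a minimum of 30 counts, 2 with the size factors of DESeq2, 4 with a minimum of 5 counts, 5 without the multiplication, 3 in a fit of all 9 libraries, and 11 and 6 on the scale of the gene test. With windows that do not overlap, the short-part share of MDH2 IP minus IgG IP was -0.0674 percentage points, and with 5 runs along each RNA 4 shares did not overlap between groups, where with 10 runs 20 did not. The cause of these changes was not tested.

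MDH2 IP and IgG IP libraries with the same number did not all vary together (r between -0.03 and 0.29), nor did SMI and IgG IP (between 0.03 and 0.31), and the replicate block changed no call of the gene test in those comparisons. The scale of the gene test was added after seeing the data. IgG IP libraries are the shallowest, and windows with few counts there were not testable at this depth.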
